A study of Mus musculus with 10 samples.

Results

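Dmp1, Mepe, Ibsp, Spp1 and Dspp encode the SIBLING proteins, the small integrin-binding ligand N-linked glycoproteins of mineralized matrix, and Pdpn, Capg, Fbln7 and Irx5 are genes that mark osteocytes as they mature and become embedded in bone. These 9 genes were chosen by name, and 8 of them were found among the 22548 genes of the deposited RNA-seq table. Dspp was not analysed here. All 8 passed the filter on low counts and were compared between osteocytes of myeloma-bearing mice (MM) and of control mice (No MM). No gene of the 8 passed the test for a difference between MM and No MM in edgeR or DESeq2, and the groups overlapped for all 8, whose levels varied widely from mouse to mouse. Such results were rare over all genes too. EdgeR called 0% of them, and DESeq2 called 0.191% higher and 1.15% lower in MM. The groups lay apart for 0.729% of genes with MM above No MM and 0.68% with MM below it.

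SIBLING proteins are acidic, heavily phosphorylated matrix proteins that carry an integrin-binding motif and bind calcium and hydroxyapatite. Osteoblasts secrete bone sialoprotein (Ibsp) and osteopontin (Spp1) as they lay down matrix, while DMP1 and MEPE come mainly from osteocytes, where they act in mineralization and in the control of phosphate. Podoplanin (Pdpn) is an early marker of the embedding osteocyte and takes part in the growth of its dendrites. Myeloma, a malignancy of plasma cells, destroys bone by raising osteoclast activity and lowering bone formation, and osteocytes signal to both of these cell types.

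The mice were C57BL/6, all labelled male and aged 8 weeks. In the MM group (mice 6 to 10), cells of Vk12598, a transplantable mouse myeloma line of the Vk*MYC model, had been injected into the femur. The No MM group (mice 1 to 5) had received no myeloma cells. The study's methods state that control mice were given the same volume of PBS. Its results describe myeloma and lytic lesions 6 weeks after the injection. Osteocytes were taken from bone pieces after removal of the marrow, by repeated rounds of collagenase and EDTA digestion, and no sort for a cell marker is described. With 1 library per mouse, n = 5 in each group, and 31099174 to 39466332 reads were counted per library. Levels are given as CPM, reads scaled to a fixed library size after TMM scaling of the library sizes, and 3 counts, taken as the smallest detectable number, corresponded to 0.0709 to 0.114 CPM (counting error only).

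Some libraries stood apart from the others or went against their labels. Immunoglobulin genes took 26.84% and 29.27% of the counts in No MM 3 and No MM 4, going by their labels, against 0.648% to 3.98% in the other 8. In the same libraries the summed level of 16 osteoblast matrix and mineralization genes, such as those for type I collagen, was 4076 and 2446 CPM, against 15805 to 57019.5 CPM elsewhere. Only No MM 5, MM 9 and MM 10 were rich in reads of Y-linked genes (162 to 198 CPM, summed over 4 genes), with Xist at 0.364 to 6.20 CPM. The other 7 libraries, although labelled male, held 0 to 1.42 CPM of Y-linked genes and 36.2 to 718 CPM of Xist. The comparisons of the members, of their ratios and of the pathway lists are therefore given with and without No MM 3 and No MM 4. Values within the 7 libraries poor in Y-linked reads are given once.

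Levels of the members and of markers of other cells were set beside the label osteocyte. Detection of the members does not test that label, since other cells make some of them, such as Ibsp and Spp1. Every member was detected in every library, from 53 counts (Pdpn) upwards, and Sost, which encodes the osteocyte product sclerostin, averaged 345 CPM in No MM and 261 CPM in MM. Markers of other cells were present as well. The summed level of 10 neutrophil markers ranged from 7124 to 32698 CPM, that of 11 osteoclast markers from 1023 to 14436 CPM and that of 9 erythroid markers from 950.0 to 61350.2 CPM. In such bulk samples, fewer cells of a type and less RNA per cell cannot be told apart.

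Dmp1, Ibsp, Mepe and Spp1 lie in a row on the forward strand of chromosome 5. In the GRCm38 coordinates of the deposited table, Dmp1 (ENSMUSG00000029307) spans chr5:104202617-104214102, Ibsp (ENSMUSG00000029306) chr5:104299171-104311469, Mepe (ENSMUSG00000053863) chr5:104325329-104338611 and Spp1 (ENSMUSG00000029304) chr5:104435118-104441050. The row runs over 238 kb from the start of Dmp1 to the end of Spp1, with only 13.9 kb between Ibsp and Mepe. Since these neighbors varied together in part, the bases just before their start sites are shown for comparison, as 180 bases upstream of the RefSeq start on GRCm38.p6, 5′ to 3′ on the forward strand. The windows are chr5:104202437-104202616 for Dmp1, chr5:104299107-104299286 for Ibsp, chr5:104325149-104325328 for Mepe and chr5:104434931-104435110 for Spp1. Capitals mark TGTGGT, a RUNX motif, which reads ACCACA where it lies on the other strand. They also mark the TATA box, TATAAA, which reads TTTATA when inverted, then the box CCAAT, which reads ATTGG when inverted, and the palindrome TTTAAA.
Dmp1: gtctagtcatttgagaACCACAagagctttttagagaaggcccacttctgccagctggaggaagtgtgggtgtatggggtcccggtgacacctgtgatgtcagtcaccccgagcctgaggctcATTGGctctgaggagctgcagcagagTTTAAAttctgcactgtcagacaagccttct
Ibsp: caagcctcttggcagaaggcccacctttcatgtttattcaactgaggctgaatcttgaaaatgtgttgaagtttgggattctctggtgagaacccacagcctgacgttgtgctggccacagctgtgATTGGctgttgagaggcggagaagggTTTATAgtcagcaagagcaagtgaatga
Mepe: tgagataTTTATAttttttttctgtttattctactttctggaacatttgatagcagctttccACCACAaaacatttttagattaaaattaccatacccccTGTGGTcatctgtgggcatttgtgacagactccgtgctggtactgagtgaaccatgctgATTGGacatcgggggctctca
Spp1: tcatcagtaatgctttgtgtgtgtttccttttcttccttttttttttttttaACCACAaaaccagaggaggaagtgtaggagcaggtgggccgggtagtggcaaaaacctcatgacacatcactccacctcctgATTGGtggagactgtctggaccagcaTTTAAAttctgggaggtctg

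In the full RefSeq windows, from 250 bases before to 50 after the start, all 4 of these genes held ATTGG, the inverted CCAAT box, at -57 in Dmp1, -54 in Ibsp, -46 in Spp1 and -21 in Mepe. Of all 32851 promoter windows of that length, 37.4% held CCAAT on either strand. The AT-rich letters closest to the start were TTTAAA at -31 in Dmp1 and at -20 in Spp1, the inverted TATAAA at -28 in Ibsp and, past the bases shown above, TTTAAA at 6 in Mepe. TATAAA or TTTAAA was found in 24.1% of all windows. The RUNX motif, which binds the osteoblast factor RUNX2 and its relatives, was matched in Dmp1, Mepe and Spp1, the last at -128, and in 16.8% of all windows. The AP-2 motif, GCCNNNGGC, is left unmarked above and was matched in Dmp1 at -68, the only 1 of 7 member windows, and in 16.6% of all windows. TGANTCA, the AP-1 motif, was matched in 0 of the 7 and in 7.81% of all windows. CCAAT and TTTAAA were looked for after the sequences had been read, and a match describes letters only. The start of Ibsp in RefSeq lies 116 bases from that of the deposited table.

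Pdpn (ENSMUSG00000028583) lies at chr4:143267431-143299564 on the reverse strand. The other markers are on forward strands, Capg (ENSMUSG00000056737) at chr6:72544391-72562983, Fbln7 (ENSMUSG00000027386) at chr2:128862981-128897034 and Irx5 (ENSMUSG00000031737) at chr8:92357796-92361456. Of the motifs marked above, the RefSeq window of Pdpn held TTTAAA, that of Fbln7 held ATTGG and that of Capg held none. The RefSeq starts of Capg and Fbln7 lie 5256 and 951 bases from those of the deposited table.

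Levels of different genes were compared as CPM per kilobase of the gene length in the table, averaged over the 10 libraries. Spp1 stood highest at 1689 ± 1098 (SD), rank 32 of the 16186 genes tested, followed by Ibsp at 615 ± 514, rank 112. This order of Spp1 over Ibsp over Dmp1 was seen in 10 of 10 libraries. Dmp1 (150.3 ± 103), Mepe (134 ± 97.7) and Capg (95.8 ± 43.0) formed a middle tier whose order was not fixed, Dmp1 exceeding Mepe in 6 of 10 libraries and Mepe exceeding Capg in 6 of 10. The remaining markers were much scarcer, Irx5 at 6.56 ± 3.29, Pdpn at 4.00 ± 2.08 and Fbln7 at 2.36 ± 1.27 CPM per kilobase, in that order in every library. Together the 8 genes took between 0.105% (No MM 4) and 1.05% (No MM 5) of a library's counts.

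**Figure D1:**
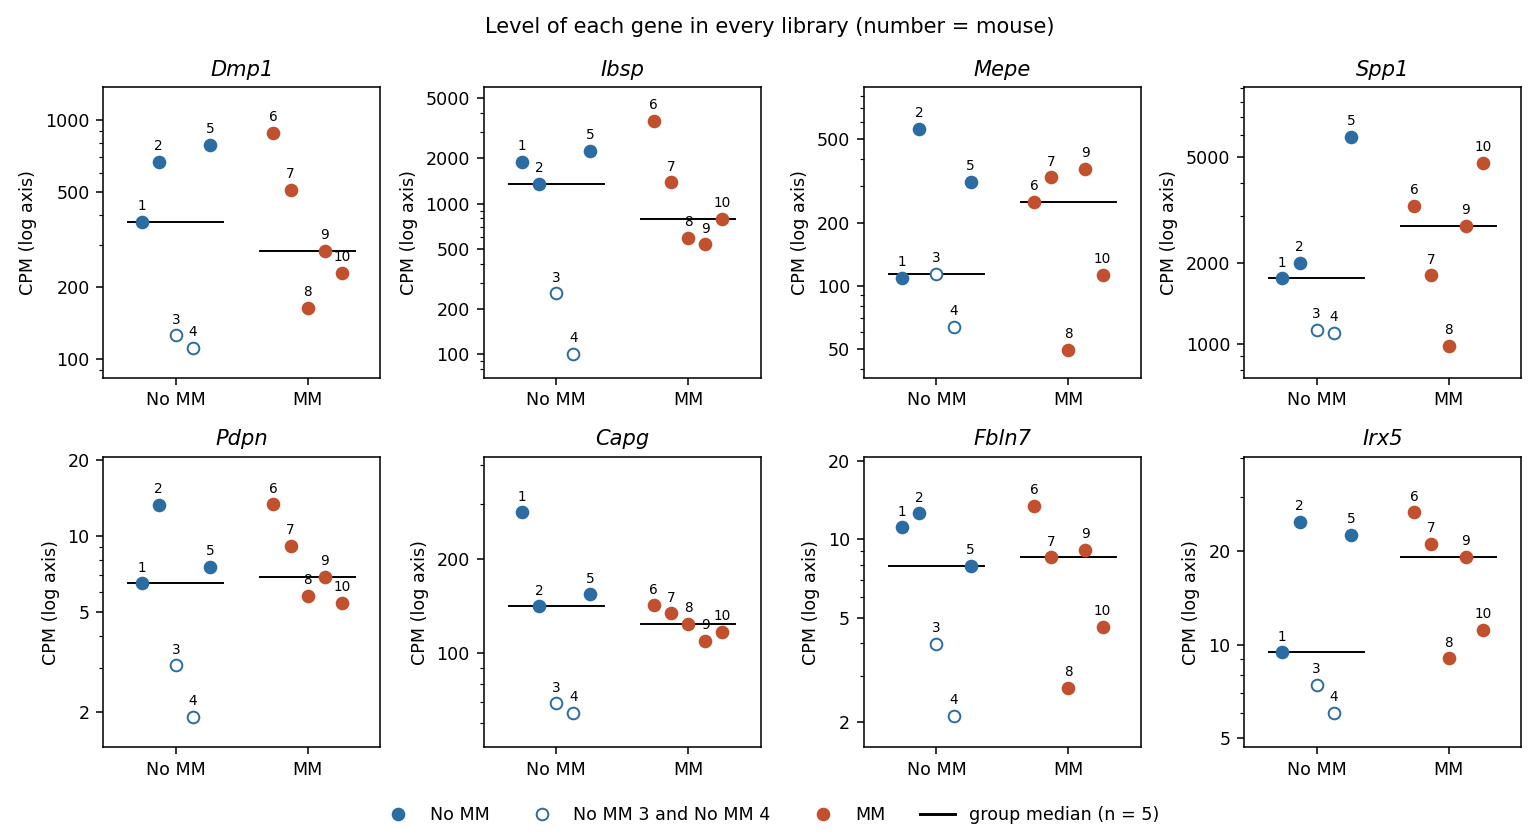
Level of each of the 8 genes in every library, in CPM on a log axis, for No MM (blue, with No MM 3 and No MM 4 as open circles) and MM (orange), with the group median as a line (n = 5 mice each). The groups overlap for every gene, and No MM 4 is the lowest library for 6 of the 8.

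Dmp1, dentin matrix protein 1, is secreted by osteocytes and acts in mineralization and phosphate balance. Its level was 377, 668, 126, 112 and 789 CPM in No MM 1 to 5, and 885, 512, 164, 284 and 229.5 CPM in MM 6 to 10. The groups overlapped almost fully, with the lowest values in No MM 3 and No MM 4 and the highest in MM 6. The means were 415 ± 309 CPM in No MM and 415 ± 293 CPM in MM (SD, n = 5 each), a log2 fold change of 0.0016 (standard error 0.620) with an adjusted p of 0.999 in edgeR. The 95% interval of that log2 change, from -1.36 to 1.37, leaves room for a change of either sign. Without No MM 3 and No MM 4 it was -0.57 (standard error 0.527, adjusted p = 0.71 in edgeR).

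Mepe, matrix extracellular phosphoglycoprotein, is an osteocyte product known as an inhibitor of mineralization through its ASARM peptide. Its level was 109, 558, 114, 63.6 and 312 CPM in No MM 1 to 5, and 251, 328, 49.5, 359 and 113 CPM in MM 6 to 10. The lowest library here was MM 8, and No MM 1 was as low as No MM 3, so the low values were not limited to the immunoglobulin-rich libraries. The group means were 231 ± 206 and 220.2 ± 135 CPM (SD, n = 5 each). On the log2 scale MM over No MM came to -0.070 (standard error 0.653, adjusted p = 0.971 in edgeR), and -0.58 without No MM 3 and No MM 4 (adjusted p = 0.748).

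Ibsp, bone sialoprotein, nucleates hydroxyapatite and is made by osteoblasts at the front of mineralization. Its level was 1899.8, 1358, 255, 100.4 and 2239 CPM in No MM 1 to 5. In MM 6 to 10 it was 3545, 1388, 593, 537 and 795 CPM. Ibsp had the widest range of the 8 genes in No MM, 22.3-fold between the highest and the lowest library. Within MM its range was 6.60-fold, below the 7.26-fold of Mepe. Among No MM 1, 2 and 5 alone the range was 1.65-fold. The means were 1170 ± 961 CPM in No MM and 1372 ± 1261 CPM in MM (SD, n = 5 each), with a log2 fold change of 0.23 (standard error 0.806, adjusted p = 0.912 in edgeR). It became -0.43 (adjusted p = 0.799) when No MM 3 and No MM 4 were left out.

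Spp1, osteopontin, inhibits crystal growth and anchors osteoclasts through the integrin αvβ3, and macrophages and osteoclasts make it as well as osteoblasts. Its level was 1757, 2005, 1134, 1104 and 5915 CPM in No MM 1 to 5, and 3267, 1807, 985, 2752 and 4724 CPM in MM 6 to 10. Both of the 2 highest libraries, No MM 5 and MM 10, were rich in Y-linked reads, and the lowest, MM 8, was not. MM 9, also rich in them, was at 2752 CPM, below MM 6 at 3267 CPM, which was poor in them. The means were 2383 ± 2013 and 2707 ± 1428 CPM (SD, n = 5 each). The change on the log2 scale was 0.18 (standard error 0.559, adjusted p = 0.900 in edgeR), and -0.26 without No MM 3 and No MM 4 (adjusted p = 0.872). Leaving out No MM 5 alone moved it to 0.85, with an adjusted p of 0.294, the smallest of any member in the 20 fits made. A gene model of GENCODE that awaits experimental support, Gm42793, overlaps 1252 bases of Spp1 on the same strand, and reads there cannot be told apart.

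Pdpn, the membrane glycoprotein podoplanin, measured 6.48, 13.2, 3.07, 1.92 and 7.52 CPM in No MM 1 to 5 and 13.3, 9.11, 5.77, 6.89 and 5.44 CPM in MM 6 to 10. All MM libraries exceeded No MM 3 and No MM 4 but lay within the range of the other No MM libraries or just outside it. With 53 to 514 counts per library, this was the least counted gene of the set. Its means of 6.44 ± 4.45 and 8.10 ± 3.24 CPM (SD, n = 5 each) gave the highest log2 fold change among the members, 0.33 (standard error 0.486, adjusted p = 0.777 in edgeR), which was -0.18 without No MM 3 and No MM 4.

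Irx5, an Iroquois homeobox transcription factor, measured 9.45, 24.8, 7.40, 6.02 and 22.6 CPM in No MM 1 to 5 and 26.7, 21.2, 9.03, 19.2 and 11.1 CPM in MM 6 to 10. Each group held both high and low libraries, and No MM 1 was as low as MM 8. The means were 14.1 ± 8.93 and 17.5 ± 7.31 CPM (SD, n = 5 each), with a log2 fold change of 0.31 (standard error 0.453, adjusted p = 0.774 in edgeR) that became -0.13 without No MM 3 and No MM 4.

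Fbln7, a fibulin of the extracellular matrix that binds cells and other matrix proteins, measured 11.1, 12.6, 3.97, 2.11 and 7.94 CPM in No MM 1 to 5 and 13.5, 8.54, 2.69, 9.12 and 4.63 CPM in MM 6 to 10. MM 8 was as low as the immunoglobulin-rich libraries. The means were nearly equal, 7.54 ± 4.49 and 7.69 ± 4.20 CPM (SD, n = 5 each), with a log2 change of 0.027 (standard error 0.533, adjusted p = 0.987 in edgeR), or -0.47 without No MM 3 and No MM 4.

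Capg, a gelsolin-family protein that caps actin filaments, was measured at 283, 141, 69.2, 64.6 and 155 CPM in No MM 1 to 5 and 142, 134, 124, 109.9 and 117 CPM in MM 6 to 10. The MM mice were alike, with a 1.30-fold range, whereas No MM spanned 4.38-fold. The means were 142.5 ± 88.4 and 126 ± 13.0 CPM (SD, n = 5 each), with a log2 fold change of -0.18 (standard error 0.361, adjusted p = 0.840 in edgeR). Without No MM 3 and No MM 4 the No MM mean was 193 ± 78.1 CPM (n = 3) and the log2 fold change -0.64 (standard error 0.241, unadjusted p = 0.0254, adjusted p = 0.643 in edgeR), with a 95% interval of -1.19 to -0.099 before any adjustment. The remaining groups still overlapped, since MM 6 exceeded No MM 2. No MM 1, at 283 CPM, stood well above No MM 2 and No MM 5. Leaving out No MM 1 alone turned the log2 fold change to 0.23 (adjusted p = 0.670 in edgeR).

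In all, 0 of the 8 members were called at an adjusted p under 0.05 in edgeR, where 0% of the 16186 genes tested were called in either direction. At an unadjusted p under 0.05, again 0 of 8 members passed, beside 3.81% of all genes higher and 10.3% lower in MM. DESeq2 called 0 members too, beside 32 genes (0.191%) higher and 192 genes (1.15%) lower. Exact permutation tests of the mean log2 CPM (two-sided, over all assignments of the mice, smallest possible p 0.00794) gave p between 0.349 (Pdpn) and 0.984 (Capg). For 0 of the 8 did the groups lie apart without overlap, beside 0.729% of all genes with MM above No MM and 0.68% with MM below it. The 95% intervals of the log2 fold changes ran from -0.98 to 0.61 for Capg, the narrowest, and from -1.55 to 2.00 for Ibsp, the widest, and each of the 8 intervals held 0. The median log2 fold change was 0.093 over the 4 SIBLING genes and 0.17 over the 4 markers, beside -0.027 over all genes tested.

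With all libraries, 6 of 8 members had a fold change above 0, and 8 of 8 had one below 0 when No MM 3 and No MM 4 were left out. The median log2 fold change then came to -0.50 for the SIBLING genes and -0.33 for the markers, beside -0.017 over all genes tested. No member was called in that fit either, where edgeR again called 0% of all genes, and Capg was the 1 member with an unadjusted p under 0.05, a threshold met by 3.37% of genes in the lower and 2.51% in the higher direction. No member's groups lay apart, beside 2.54% of genes with MM above and 1.35% with MM below the 3 remaining No MM libraries. Its exact permutation p was 0.0357 (two-sided, n = 3 and 5, smallest possible p 0.0179), while the other members gave exact p of 0.25 to 0.804. Within the 7 libraries poor in Y-linked reads (No MM 1 to 4 and MM 6 to 8), unadjusted p was 0.278 to 0.991 in edgeR. The log2 fold changes there ran from -0.060 (Capg) to 1.03 (Ibsp). With the Y-linked level as a covariate they ran from -0.16 (Capg and Mepe) to 0.35 (Pdpn).

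**Figure D2:**
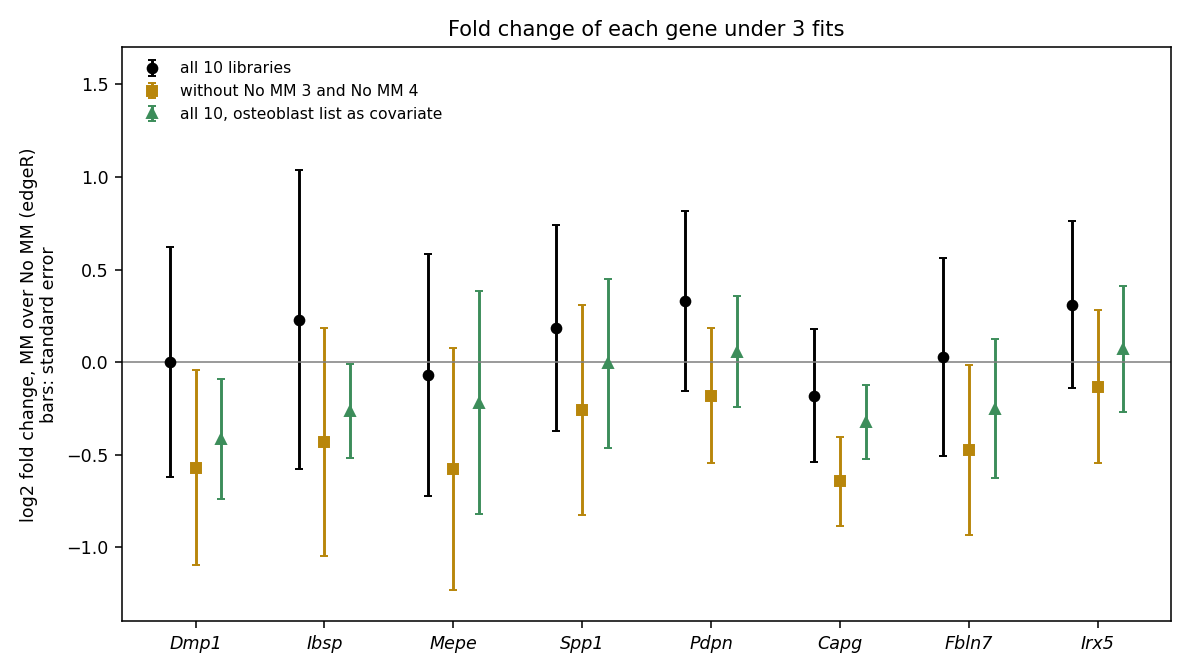
Log2 fold change (MM over No MM, edgeR) of each gene with its standard error, for all 10 libraries, for the 8 without No MM 3 and No MM 4, and for all 10 with the mean log2 CPM of the osteoblast list as a covariate. With all libraries 6 of 8 points lie above 0, and without the immunoglobulin-rich libraries 8 of 8 lie below it.

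The spread between mice was wide for these genes. The median over the members of the SD of log2 CPM was 1.08 in No MM and 0.886 in MM, against a median over all tested genes of 0.560 and 0.314. In No MM 8 of 8 members exceeded that median, and in MM 7 of 8 did, Capg being the exception with an SD of 0.149. Among No MM 1, 2 and 5 the member median fell to 0.552, beside 0.389 for all genes. No MM 3 and No MM 4 were both among the 3 lowest libraries for 7 of 8 members, the exception being Mepe. MM 6 was the highest library for 5 members, namely Dmp1, Ibsp, Pdpn, Fbln7 and Irx5.

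The 4 neighbors of the SIBLING row that passed the filter on low counts were steadier than its members. Hsd17b13 (mean 0.151 CPM in No MM and 0.0681 CPM in MM) and Gm26703 (0.111 and 0.0821 CPM) did not pass it and were left out. At these low levels Hsd17b13 varied 9.57-fold over the 10 libraries. From the lowest to the highest of the 10 libraries, Ibsp varied 35.3-fold, Mepe 11.3-fold, Dmp1 7.92-fold and Spp1 6.01-fold. Upstream of Dmp1, Nudt9, a nucleotide hydrolase gene, varied 1.79-fold and Sparcl1, which encodes a matrix glycoprotein related to SPARC, 4.24-fold. Farther upstream, the steroid dehydrogenase gene Hsd17b11 varied 3.72-fold, and downstream of Spp1 the polycystin gene Pkd2 varied 3.44-fold. Without No MM 3 and No MM 4, the range was 6.60-fold for Ibsp, 11.3-fold for Mepe, 5.39-fold for Dmp1, 6.01-fold for Spp1 and 1.66-fold to 4.24-fold for these 4 neighbors. Pearson's r of log2 CPM with Dmp1 over the 10 libraries was 0.914 for Ibsp, 0.781 for Mepe and 0.642 for Spp1. Among the neighbors it was 0.681 for Pkd2, above that of Spp1, and 0.611 for Hsd17b11, 0.158 for Nudt9 and 0.0386 for Sparcl1. Over the 8 libraries the r with Dmp1 was 0.562 for Pkd2, 0.456 for Sparcl1, -0.157 for Hsd17b11 and -0.202 for Nudt9.

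Across libraries the members were correlated with one another to very different degrees. These correlations are descriptions over 10 libraries that share depth, scaling and cell composition. Over the 28 pairs, r ranged from 0.273 (Mepe and Capg) to 0.914 (Dmp1 and Ibsp), with a median of 0.750. Without No MM 3 and No MM 4, the median over 8 libraries was 0.511 and the range ran from -0.279 (Capg and Irx5) to 0.903 (Mepe and Irx5). Dmp1 kept an r above 0.7 in those 8 libraries with Ibsp (0.865), Mepe (0.731), Pdpn (0.816), Fbln7 (0.801) and Irx5 (0.833), but not with Spp1 (0.428) or Capg (0.244). Ibsp and Mepe, the closest neighbors on the chromosome, had an r of 0.555 over 10 libraries and 0.314 over 8. Capg had no positive correlation with Mepe (-0.166), Spp1 (-0.145) or Pdpn (-0.0060) over the 8.

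**Figure D3:**
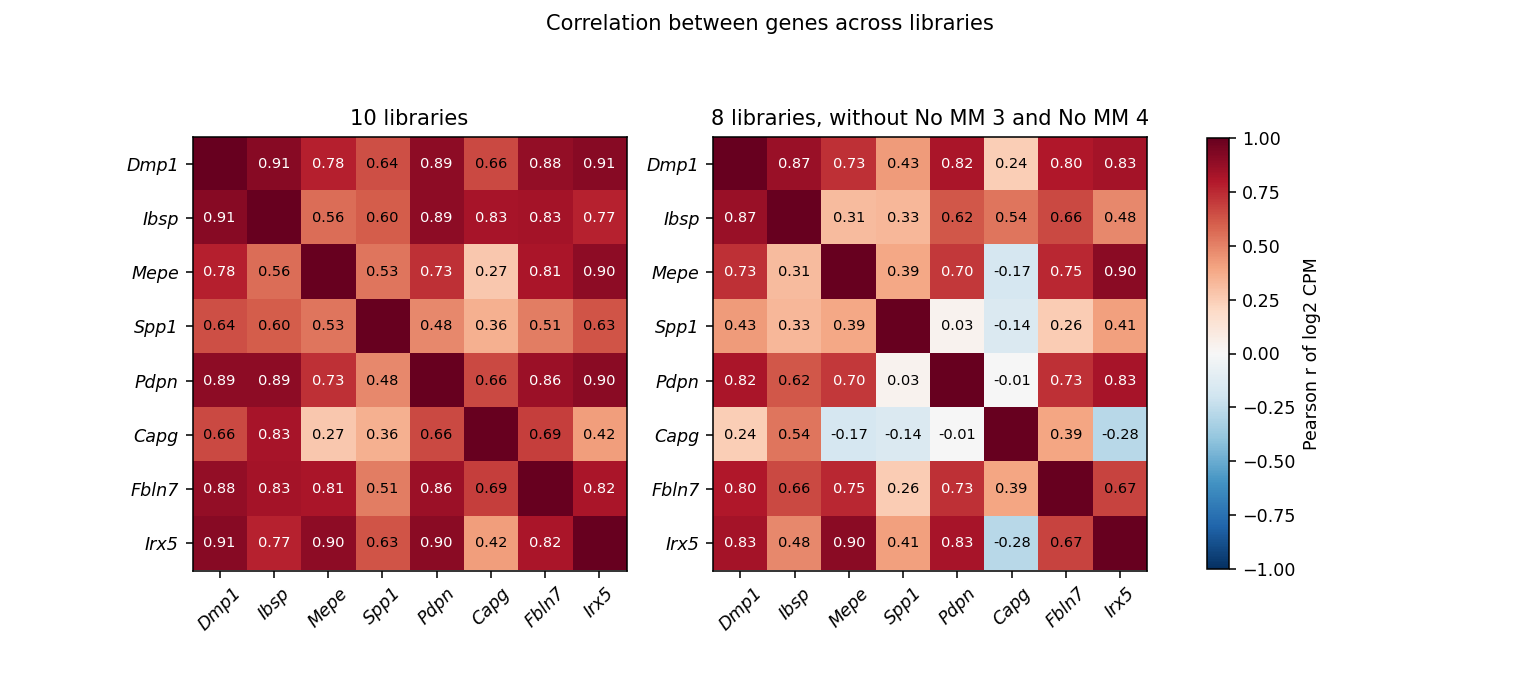
Pearson's r of log2 CPM for each pair of genes, over 10 libraries (left) and over the 8 without No MM 3 and No MM 4 (right), with red for positive and blue for negative values. Dmp1, Pdpn, Fbln7, Irx5 and Mepe stay correlated in both, while the rows of Capg and Spp1 pale on the right.

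The ratio between SIBLING genes differed between mice, calculated as CPM per kilobase. Ibsp exceeded Mepe 14.2-fold in No MM 1 and 11.5-fold in MM 6, but only 1.28-fold in No MM 4 and 1.21-fold in MM 9. Neither group held a typical value, since the ratio ranged from 1.28 to 14.2 in No MM and from 1.21 to 11.5 in MM. Spp1 exceeded Dmp1 by 5.49-fold (No MM 2) to 18.1-fold (No MM 4) in controls and by 6.46-fold (MM 7) to 37.7-fold (MM 10) in myeloma-bearing mice. The ratio of Mepe to Dmp1, both osteocyte products, kept to a narrower band of 0.465 (MM 6) to 2.07 (MM 9). For these 3 ratios, the difference between the group means of log2 was smaller than the SD within either group, for example 0.56 for Ibsp over Mepe with SDs of 1.44 in No MM and 1.31 in MM. For Ibsp over Dmp1 the difference was 0.46, with SDs of 0.90 in No MM and 0.44 in MM. Without No MM 3 and No MM 4 the difference in mean log2 was -0.18 for Ibsp over Mepe, -0.019 for Ibsp over Dmp1, 0.55 for Spp1 over Dmp1 and 0.16 for Mepe over Dmp1, each again smaller than the SD of the 3 remaining No MM libraries (0.66 to 1.42).

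**Figure D4:**
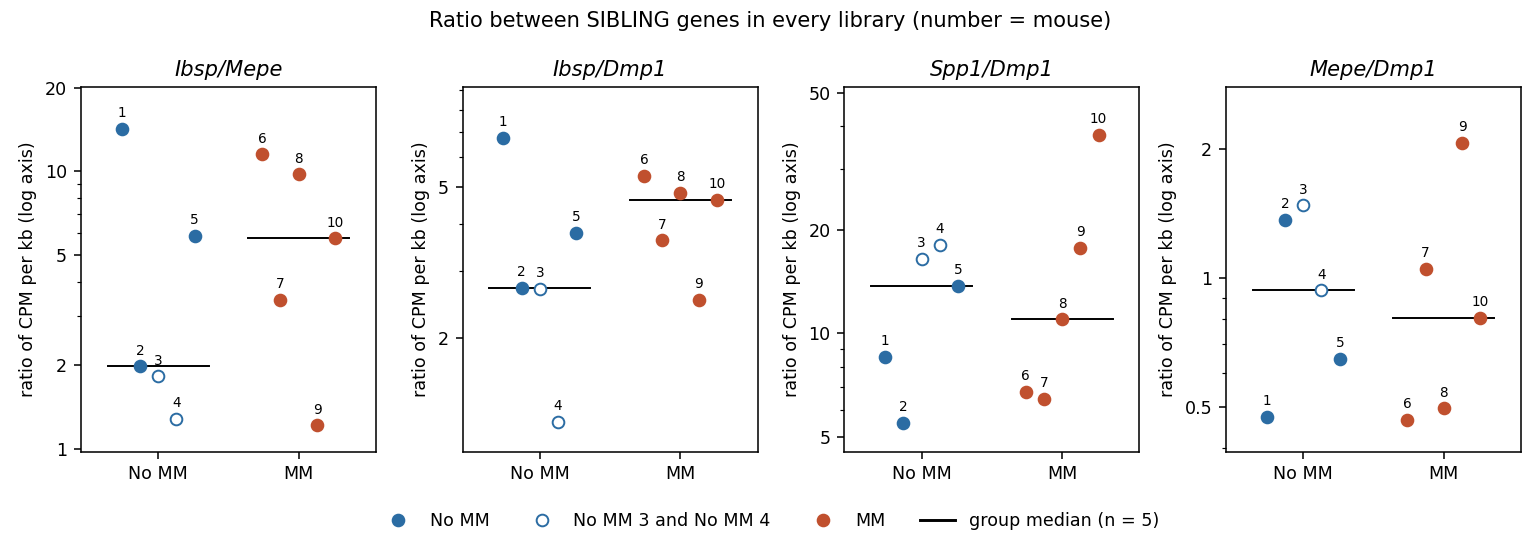
Ratio of CPM per kilobase between pairs of SIBLING genes in every library, on a log axis, with the group median as a line (n = 5 mice each, No MM 3 and No MM 4 as open circles). The groups overlap in all 4 panels, and Ibsp over Mepe ranges from 1.21 in MM 9 to 14.2 in No MM 1.

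The members were set beside the marker lists of other cells, again as descriptions. Ibsp followed the mean log2 CPM of the 16 osteoblast genes, which do not include it, with r = 0.976 over 10 libraries and 0.978 over the 8. For Mepe the same r was 0.503 over 10 and 0.211 over 8. Dmp1 lay between them, at 0.874 and 0.787. This order was not particular to the osteoblast genes. With the summed chondrocyte markers r was 0.937 and 0.880 for Ibsp, below its osteoblast values. For Dmp1 it was 0.895 and 0.829, above its osteoblast values, and for Mepe 0.596 and 0.402. Mepe had a higher r with the marrow stromal and fat markers, 0.676 over 10 and 0.604 over 8. With the summed osteoclast markers, a list in which Acp5, the osteoclast acid phosphatase, was the most abundant gene, Capg had an r of 0.930 over 10 and 0.807 over 8. Ibsp had an r as high with that list (0.937 and 0.839), and that of Dmp1 was 0.821 and 0.598. Capg was also correlated with the osteoblast genes, at 0.855 over 10 and 0.554 over 8. The r of Spp1 with macrophage markers was 0.201 over 10 libraries and -0.863 over 8. What part these cells had in the members' levels was not tested beyond these values.

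**Figure D5:**
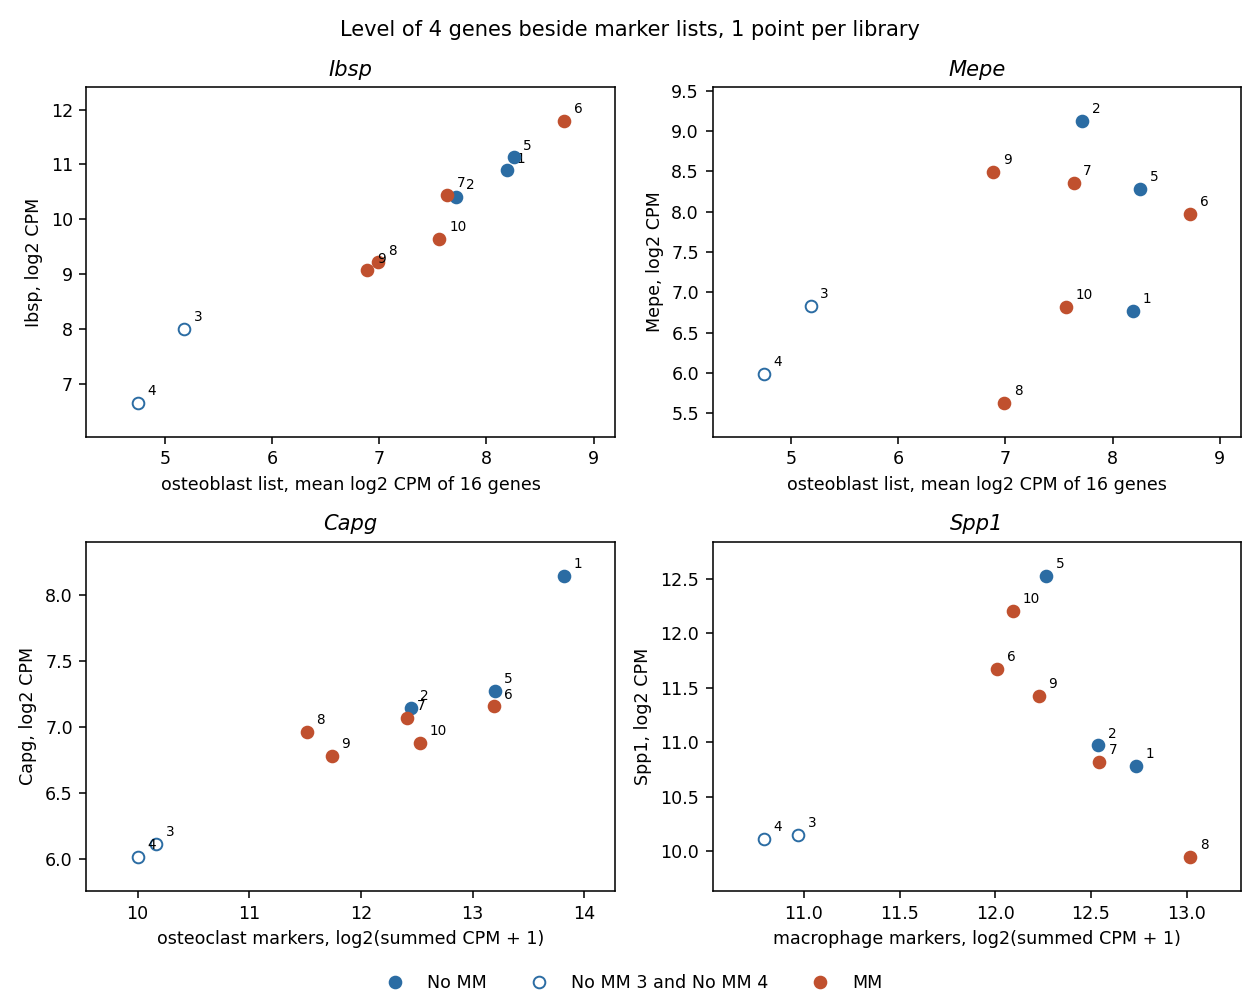
Log2 CPM of Ibsp and Mepe against the mean log2 CPM of 16 osteoblast genes, of Capg against osteoclast markers and of Spp1 against macrophage markers (both as log2 of the summed CPM plus 1), 1 point per library, with No MM 3 and No MM 4 as open circles. Ibsp lies close to a line (r = 0.976), while Mepe scatters at any given osteoblast level (r = 0.503).

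The marker lists that set No MM 3 and No MM 4 apart give the context of the low member levels there. The 11 osteoclast markers summed to 1149 and 1023 CPM in these libraries and to 2923 to 14436 CPM in the other 8. The macrophage markers, 11 genes with Lyz2 the most abundant, summed to 2002 and 1770 CPM against 4127 to 8290 CPM. B and plasma cell markers went the other way, 3820 and 3694 CPM against 496 to 815 CPM. The list of other osteocyte genes was lowest there as well, at 1204 and 990.0 CPM against 1339 to 2923 CPM. No list of the set had a gene called at an adjusted p under 0.05 in edgeR. The B and plasma cell list had 5 of its 10 tested genes lower in MM at an unadjusted p under 0.05 and 2 called by DESeq2, and its median log2 fold change of -1.26 was -0.058 without No MM 3 and No MM 4.

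Genes of the same pathways were taken from lists made by their known roles. In edgeR, of 14 other osteocyte genes, 5 had higher and 9 lower fitted values in MM, 0 were called, and the median log2 fold change was -0.041, and -0.44 without No MM 3 and No MM 4, beside -0.027 and -0.017 over all genes. Enpp1, which makes the mineralization inhibitor pyrophosphate, was lowest at -1.11 (unadjusted p = 0.0169, adjusted p = 0.315 in edgeR), with means of 129.6 ± 82.6 and 60.1 ± 15.8 CPM (SD, n = 5 each). Its log2 fold change was -0.28 without No MM 3 and No MM 4. Ptprz1, a receptor phosphatase, had the highest value at 0.46 (adjusted p = 0.708 in edgeR), and -0.073 without those libraries. Dstn, which encodes an actin-depolymerizing protein, was the most abundant (0.053, and -0.20 without them). Of the 16 osteoblast genes, 15 had higher fitted values, 0 were called and 0 had an unadjusted p under 0.05. Their median log2 fold change was 0.13, and -0.54 without those libraries, beside 0.093 and -0.50 for the SIBLING genes. Omd had the highest value (0.78), Sparc the lowest (-0.13), and Col1a2 was the most abundant (0.14). Without those libraries the 3 values were 0.46, -0.80 and -0.55. DESeq2 called 0 genes of either list.

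The proteins that process SIBLING proteins or bind them were covered by 17 tested genes, 7 with higher and 10 with lower fitted values and 0 called. Their median log2 fold change was -0.044, and -0.21 without No MM 3 and No MM 4. Ctsb, the cathepsin that cleaves MEPE, was the most abundant and had the lowest log2 fold change, -0.42 (adjusted p = 0.467 in edgeR), from 1347 ± 437 to 1010 ± 109.7 CPM (SD, n = 5 each), and -0.54 without those libraries. Itgb3, the β3 chain of the osteopontin receptor and an osteoclast marker, had the highest at 0.48 (adjusted p = 0.607), and -0.013 without No MM 3 and No MM 4. Fam20c, the kinase that phosphorylates SIBLING proteins, averaged 78.4 CPM in No MM and 68.5 CPM in MM. Its log2 fold change was -0.19, and -0.64 without those libraries (unadjusted p = 0.625 and 0.0694 in edgeR). Phex, the peptidase mutated in X-linked hypophosphatemia, averaged 106 CPM in No MM and 143 CPM in MM. Its log2 fold change of 0.43 was -0.21 without those libraries (unadjusted p = 0.523 and 0.642 in edgeR).

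Partners of podoplanin and of actin capping were represented by 16 genes, 12 with higher and 4 with lower fitted values and 0 called. The median log2 fold change was 0.17, and -0.028 without No MM 3 and No MM 4. Clec1b, the platelet receptor of podoplanin, had the highest value at 0.67 (adjusted p = 0.514 in edgeR) and the linker Ezr the lowest at -0.20 (adjusted p = 0.738). The most abundant was Cfl1, the actin-severing protein cofilin, at -0.047 (adjusted p = 0.957 in edgeR). Without those libraries Clec1b was at 0.25, Ezr at 0.0014 and Cfl1 at -0.39. Among 7 fibulin relatives of Fbln7, 3 had higher and 4 lower fitted values, from Fbln2 at -0.33 to Efemp1 at 0.50, with Fbln5 the most abundant (0.28). Their median of -0.087 was -0.18 without No MM 3 and No MM 4, where Fbln2 was at -0.48, Efemp1 at 0.079 and Fbln5 at -0.18. Of the Iroquois genes related to Irx5, 3 were tested, and Irx3 was both the most abundant and the highest at 0.50 (adjusted p = 0.628), with Irx6 the lowest at -0.094. Without those libraries Irx3 was at 0.076 and Irx6 at -0.54, and the median of the 3 genes went from 0.098 to -0.11. With all libraries, these lists and that of the processing genes had 0 genes with an unadjusted p under 0.05 in edgeR and 0 called by DESeq2.

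For each member, the genes with the most similar pattern over the 10 libraries were found by Pearson's r of log2 CPM among 16185 other genes. For Dmp1 they were Fgfr1, an FGF receptor (r = 0.971), Pcdhb6 (0.969) and Epha2 (0.968). For Mepe the first was Sost (r = 0.957, and 0.964 over the 8 libraries), then Adamtsl2 (0.954) and Jam2 (0.953). Ibsp was matched by Kcnk1 (0.995), Mlip (0.993) and Arhgap31 (0.992). Of the 8 members, only Mepe had a gene of the osteocyte list among its first 3.

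The 3 most similar genes of Spp1 were RP23-258L8.1 (r = 0.951), Cdh23 (0.937) and Rapgefl1 (0.935), the lowest values reached for any member. Pdpn was matched by Smad6 (0.979), Ptprm (0.968) and Pde1a (0.967), Fbln7 by Calml3 (0.985), Pmp22 (0.978) and Vnn1 (0.972), and Irx5 by 6430573F11Rik (0.982), Magi2 (0.979) and Rnf150 (0.978). For Capg they were Atp6v0e, a subunit of the proton pump (0.991), the actin regulator Coro1c (0.985) and Sepn1 (0.978). The best of so many genes is high by selection, and the libraries share their composition.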

How the data were processed

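Osteocyte RNA of 10 mice, 5 No MM and 5 MM, was sequenced as stranded total RNA (TruSeq), read from both ends. Per the labels, FastQC 0.11.5 and STAR were among the tools used. The counting program and the annotation are not given in the sources used here. The authors deposited read counts per gene, the same counts divided by size factors (a normalized signal) and FPKM values. A log2 fold change and p-values per gene were also deposited and hold the authors' own comparison. Of all these, the deposited counts alone were used.

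The counts were filtered with filterByExpr, scaled with TMM factors and compared, MM against No MM without covariates, by the quasi-likelihood test (glmQLFit, glmQLFTest) of edgeR 4.0.16 in R 4.3.3 over 16186 genes. Benjamini-Hochberg adjustment covered all of these genes, and 0.05 was the threshold. Standard errors were calculated as the log2 fold change divided by the square root of F, and 95% intervals from the t distribution with the degrees of freedom of the fit. The log2 CPM used a prior count of 2. Between 31099174 and 39466332 reads per library were counted, and the limit of 3 counts covers counting error only. DESeq2 1.42.0, RLE factors, other filters, covariates and omitted libraries were tried as alternatives, and the Y-linked ones were added after seeing the data. On simulated counts for this comparison, with 200 of 16186 genes changed, edgeR called 81% of them and DESeq2 85.5%, and with no change edgeR called 0 genes and DESeq2 4. Each changed gene was given a log2 change of 2 in either direction. The counts followed the trend of dispersion over all genes, and no library was set apart. Most members varied more between mice than the median gene, so these shares do not apply to them or to smaller changes.

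The members and the gene lists were chosen with earlier results of these data known. Named were the 8 members, the 3 genes of highest r with each, and for each pathway list the genes with the highest and the lowest fold change and the most abundant. Other genes (Sost, Fam20c, Phex, Nudt9, Sparcl1, Hsd17b11 and Pkd2 among them) were named outside that rule, after their values were seen. Promoter sequences came from RefSeq (GRCm38.p6), with 7 of 8 members matched. All 8 members are in GENCODE M21, 6 with identical start and end.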

Additional observations from a re-analysis of the deposited data

Results flagged for a closer look

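Of 16 sets of 5 libraries examined (8 genes in 2 groups), 2 had a library far from the others in CPM. For normally distributed values, chance alone gives about 1 in 20. The limit was applied to CPM and not to log2 CPM, so that rate may not hold here and the flags may depend on the scale. Spp1 in No MM was highest in No MM 5, at 5915 CPM, and the gap to the next library took up 0.813 of the range of the group (limit 0.71). Ibsp in MM was highest in MM 6, at 3545 CPM, where the gap amounted to 0.717 of the group's range. No MM 5 was among the libraries rich in Y-linked reads, and MM 6 had the highest osteoblast level of the 10. The part of these measures in the high values was not tested.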

How the results depend on the processing

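No setting tried gave a call for any of the 8 members, and the adjusted p of a member lay between 0.294 and 0.9997 over 20 fits of each in edgeR and DESeq2. In a design of 5 against 5 with wide spread, this does not show that the genes were equal. No paired analysis was possible because the labels number the mice 1 to 5 and 6 to 10, so that the groups share no number. The study's text names its differential analysis a paired one, but the sources used here do not say which mice would form pairs. At an adjusted p under 0.05, DESeq2 called 32 genes higher and 192 lower in MM, and edgeR called 0 and 0. In edgeR, an unadjusted p under 0.05 was met by 617 genes higher and 1664 lower in MM.

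Signs of log2 fold changes turned in several fits. Without No MM 3 and No MM 4 they were -0.57 for Dmp1, -0.43 for Ibsp, -0.26 for Spp1, -0.18 for Pdpn, -0.47 for Fbln7 and -0.13 for Irx5. With the osteoblast list as a covariate they were -0.42 for Dmp1, -0.26 for Ibsp, -0.0062 for Spp1 and -0.25 for Fbln7, and without immunoglobulin genes -0.0021 for Dmp1. The difference of mean log2 CPM without those 2 libraries was -0.76 for Dmp1, -0.78 for Ibsp, -0.60 for Mepe, -0.21 for Spp1, -0.17 for Pdpn, -0.55 for Capg, -0.63 for Fbln7 and -0.11 for Irx5. With all libraries that difference was above 0 for every member, from 0.030 (Capg) and 0.055 (Mepe) to 0.62 (Ibsp). For Capg and Mepe this sign was opposite to that of the edgeR log2 fold changes, -0.18 and -0.070. The cause of the turned signs was not tested.

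With each mouse left out in turn, the log2 fold change ranged from -0.48 to 0.37 for Dmp1, -0.50 to 0.60 for Ibsp, -0.32 to 0.55 for Mepe, -0.11 to 0.85 for Spp1, 0.076 to 0.76 for Pdpn, -0.37 to 0.23 for Capg, -0.27 to 0.28 for Fbln7 and 0.10 to 0.61 for Irx5. The difference of mean log2 CPM ranged from -0.21 to 0.50 for Dmp1, -0.076 to 1.04 for Ibsp, -0.30 to 0.51 for Mepe, 0.059 to 0.71 for Spp1, 0.19 to 0.88 for Pdpn, -0.20 to 0.33 for Capg, -0.29 to 0.42 for Fbln7 and 0.20 to 0.70 for Irx5. RLE factors, omission of the count filter, a minimum of 10 counts per library and the plain library total turned none of the signs.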
